A study of Mus musculus with 2 samples.

Results

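The microtubule motor genes of mouse cortex were taken as every gene whose symbol begins with Kif and a digit, is one of Klc1 to Klc4, or begins with Dync1 or Dync2, and which has at least 1 protein-coding transcript. The rule took 50 genes of 55536 with an Ensembl identifier, or of 22028 protein-coding genes. They were read as 15 transport kinesin heavy chains, 11 mitotic kinesins, 4 kinesin light chains, 5 cytoplasmic dynein 1 subunits, 2 cytoplasmic dynein 2 subunits and 13 other members. Among the last is Kif1bp, a kinesin binding protein that the rule takes by its symbol and that is not itself a motor. The antisense gene Kif16bos and the pseudogenes Kif22-ps and Kif4-ps have no protein-coding transcript and were left out. All 3 had 0 reads in both alignment-based tables.

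The tissue was the left cerebral cortex, taken from 2 females of strain B6CASTF1/J, the F1 cross of a C57BL/6 and a CAST strain, at 10 days of age. The input to total RNA sequencing was 300 ng per animal, ERCC spike-ins were added, and the labels name no treatment and no engineered allele. The animals are biological replicates 1 and 2 of 1 group, so no conditions were compared and no p-value was computed. The labels describe them as separate females with sample records of their own but give both the same donor identifier. They do not say whether they were littermates, and every SD describes these 2 animals only.

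Kinesins are ATP-driven motors that mostly walk toward the plus end of microtubules, and cytoplasmic dynein walks toward the minus end. In axons, whose microtubules point plus end out, kinesins carry vesicles, mitochondria and channels away from the cell body, and dynein 1 brings endosomes and spent organelles back. Another set of kinesins builds the spindle and the midbody of dividing cells, and dynein 2 with some kinesins works in cilia.

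Of 29867112 and 31031340 reads assigned to genes in replicates 1 and 2, the motor genes took 1.02% and 1.04%. Levels are given as TPM, a share of all transcripts, which divides reads by transcript length so that genes can be set beside each other. Protein-coding genes held 50.8% and 48.5% of all TPM in the alignment-based tables, against 79.1% and 80.0% in the alignment-free tables. TPM is thus not on the same scale in these tables. Of the 50 motor genes 48 were higher alignment-free, and Kif12 and Kif2b were at 0 in both. The share of all genes that were higher was not computed. The neuron markers fitted the labelled tissue, with 7 of 7 between 68.8 and 677 TPM, among them Slc17a7, the vesicular transporter of cortical glutamatergic neurons, at 522 and 501 TPM. Of 12 markers of dividing cells 11 reached 1 TPM in both libraries, and the highest, Top2a, stood at 4.97 and 4.76 TPM. Markers of myelinating oligodendrocytes were higher in replicate 2, with a median log2 ratio of 1.05 over 4 of 4 genes. So were 4 of 4 markers of choroid plexus and ependyma, with a median of 1.02. The latter rest on few reads, 152 in replicate 1 and 327 in replicate 2 over all 4 genes. The 3 markers of striatum were lower in replicate 2, with a median of -0.33. The part of such tissue differences in the values below was not tested. In whole tissue, fewer cells of a type and less RNA per cell cannot be told apart.

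Most motor genes were present in the cortex, and the genes listed for transport stood far above those listed for division. At 1 TPM or more in both libraries stood 38 of 50 motor genes, or 76.0%, against 59.1% of all protein-coding genes. At 10 TPM or more stood 23 motor genes, against 37.3% of protein-coding genes, and at 100 TPM or more stood 9, against 4.38%. The detected members were 15 of 15 transport kinesins, 5 of 5 dynein 1 subunits, 2 of 2 dynein 2 subunits, 3 of 4 light chains, 6 of 11 mitotic kinesins and 7 of 13 other members. The median motor gene stood at 7.43 and 7.64 TPM, beside 4.05 and 3.72 TPM for the median protein-coding gene.

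**Figure D1:**
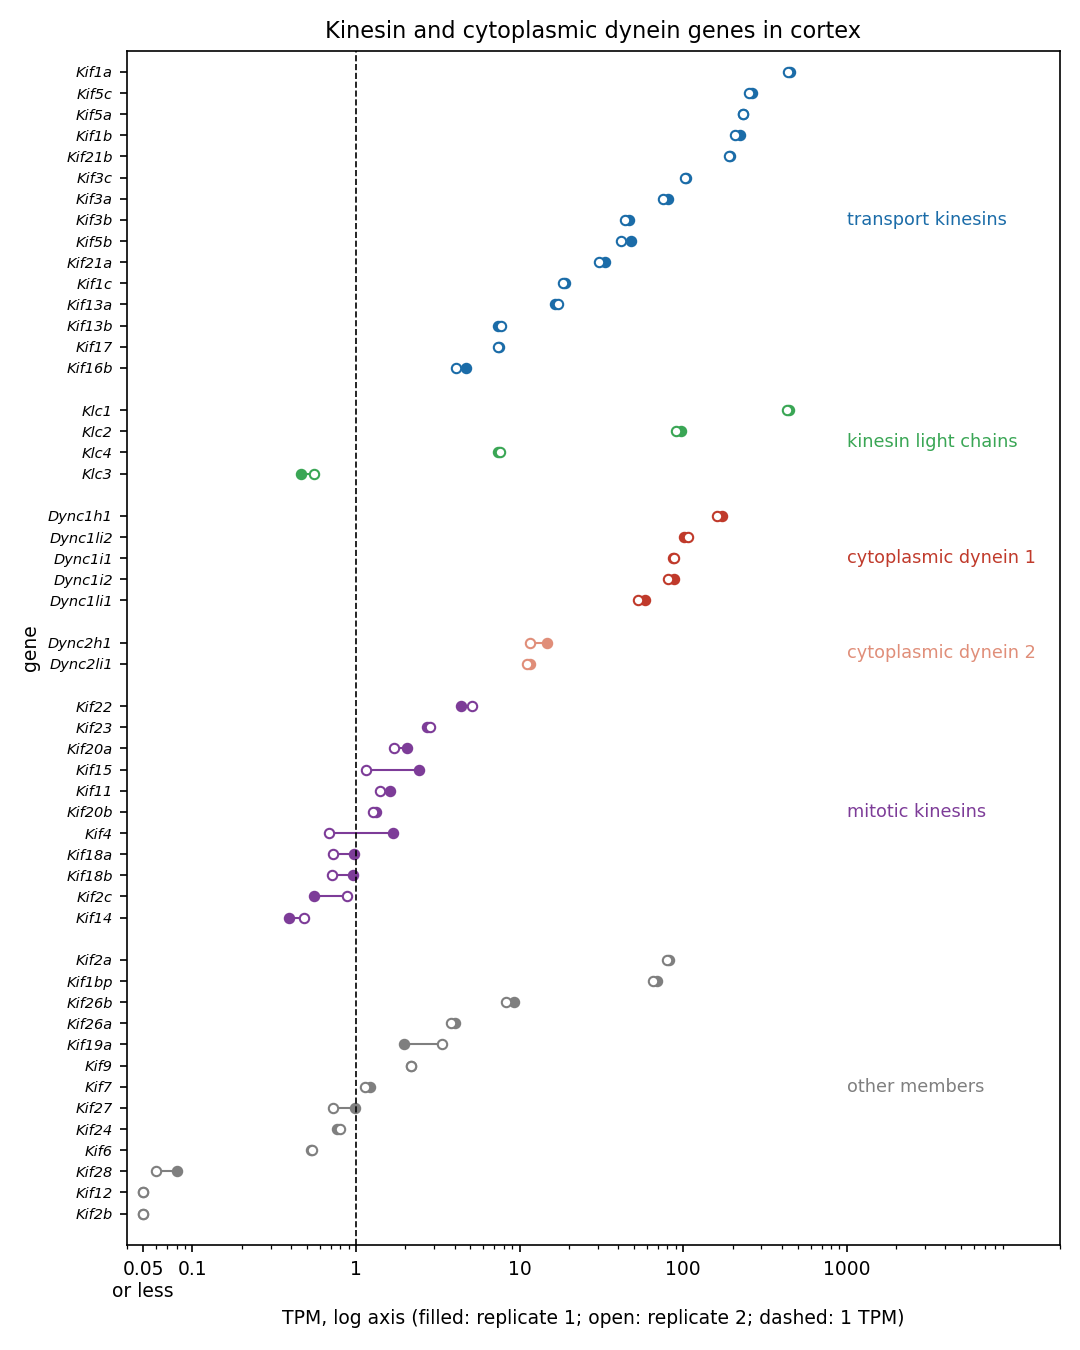
TPM of the 50 motor genes on a log axis, 1 row a gene, in 6 lists, with replicate 1 as a filled and replicate 2 as an open point; values at or under 0.05 TPM are drawn at 0.05. Transport kinesins run from 4.40 to 442 TPM (means), mitotic kinesins from 0.435 to 4.74 TPM, and the dashed line marks 1 TPM.

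The highest transport kinesin was Kif1a, which in the alignment-based tables shared the top of all motor genes with the light chain Klc1. Kif1a, the kinesin-3 that carries synaptic vesicle precursors along axons, stood at 448 and 437 TPM in replicates 1 and 2, from 55639 and 60590 reads, which is above 99.5% of protein-coding genes. Its paralogue Kif1b, a carrier of mitochondria and vesicle precursors, reached 221 and 208 TPM, and Kif1c, a carrier of dense-core vesicles, 19.0 and 18.5 TPM. Kif1a over Kif1b was 2.06-fold (log2 1.05 ± 0.03, SD, n = 2), and the ranges of these 3 genes over the 2 libraries did not overlap.

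The kinesin-1 heavy chains, the general carriers of anterograde axonal cargo, followed in the order Kif5c, Kif5a, Kif5b. Kif5c stood at 262 and 251 TPM, Kif5a at 231 and 232 TPM, and Kif5b, the form found in most tissues, at 47.9 and 41.7 TPM. Kif5c lay above Kif5a in both animals by a small margin (log2 0.15 ± 0.05, SD, n = 2). Over protein-coding transcripts the log2 ratio was 0.13 in replicate 1 and -0.01 in replicate 2, so the order of these genes was not kept there. Kif5c was 5.73-fold above Kif5b (log2 2.52 ± 0.10) and Kif5a 5.17-fold above it (log2 2.37 ± 0.15, both SD, n = 2). The alignment-free tables gave the same order with smaller gaps, 3.48-fold and 3.09-fold, since Kif5b stood there at 107 and 108 TPM. A processed transcript of 572 bases, Kif5b-206, held 25.4% and 32.7% of the alignment-free TPM of Kif5b and 0% of the alignment-based TPM.

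Of the kinesin-2 genes, whose products work in axons and cilia as Kif3a paired with Kif3b or Kif3c, Kif3c was highest at 104 and 102 TPM. Kif3a stood at 81.1 and 75.6 TPM and Kif3b at 46.7 and 44.1 TPM. The lead of Kif3c over Kif3a was not kept in the alignment-free tables, which gave 159 and 158 TPM against 159 and 152 TPM. The homodimeric kinesin-2 Kif17, known for carrying NMDA receptor vesicles in dendrites, was far lower at 7.44 and 7.38 TPM. Antisense gene 1110002L01Rik covers 35.3% of the exon bases of Kif3c and stood at 4.74 and 3.64 TPM, and no source used here says whether the authors counted by strand.

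The kinesin-4 gene Kif21b, which also slows microtubule growth, stood at 194 and 190 TPM, 6.01-fold above its paralogue Kif21a at 33.4 and 30.4 TPM (log2 2.59 ± 0.08, SD, n = 2). Over protein-coding transcripts alone this gap was 1.07-fold, with Kif21b at 35.2 and 33.3 TPM and Kif21a at 33.5 and 30.4 TPM. Most of Kif21b TPM lay on Kif21b-204, which is annotated as a target of nonsense-mediated decay and so is not in that set. Its annotated reading frame has 1639 codons, beside 1624 in the protein-coding Kif21b-201. The kinesin-3 genes of the endosomal system closed the list. Kif13a stood at 16.5 and 17.1 TPM, Kif13b at 7.33 and 7.74 TPM, and Kif16b, a carrier of early endosomes, lowest of all 15 at 4.71 and 4.09 TPM.

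The kinesin light chains, which link kinesin-1 to its cargo, were led by Klc1 at 444 and 428 TPM. Klc1 thus lay beside Kif1a at the top of the motor genes in the alignment-based tables, with values that overlap those of Kif1a. In the alignment-free tables Kif1a led without overlap, at 840 and 875 TPM against 571 and 583 TPM, or 1.49-fold. The alignment-based order of these genes turned with the transcripts counted. Over transcripts of 1 kb or more Kif1a stood at 390 and 392 TPM and Klc1 at 408 and 398 TPM. Klc2 stood at 96.2 and 90.8 TPM, 4.66-fold lower than Klc1 (log2 ratio 2.22 ± 0.02, SD, n = 2), Klc4 at 7.41 and 7.55 TPM, and Klc3 at 0.46 and 0.55 TPM from 15 and 18 reads. Together the 4 light chains summed to 549 and 527 TPM, and the 3 kinesin-1 heavy chains to 541 and 525 TPM. The ratio of heavy to light chains was 0.99 and 1.00 in the alignment-based tables and 1.13 and 1.19 in the alignment-free tables. Over protein-coding transcripts alone it was 1.06 and 1.03. The holoenzyme holds as many heavy as light chains, but these ratios are of transcripts, and protein was not measured. For kinesin-2 the ratio of Kif3b plus Kif3c to their partner Kif3a was farther from 1, at 1.86 and 1.94. It was 1.38 and 1.44 in the alignment-free tables, and 2.00 and 2.11 over protein-coding transcripts alone. These sums were compared after the levels had been seen.

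**Figure D2:**
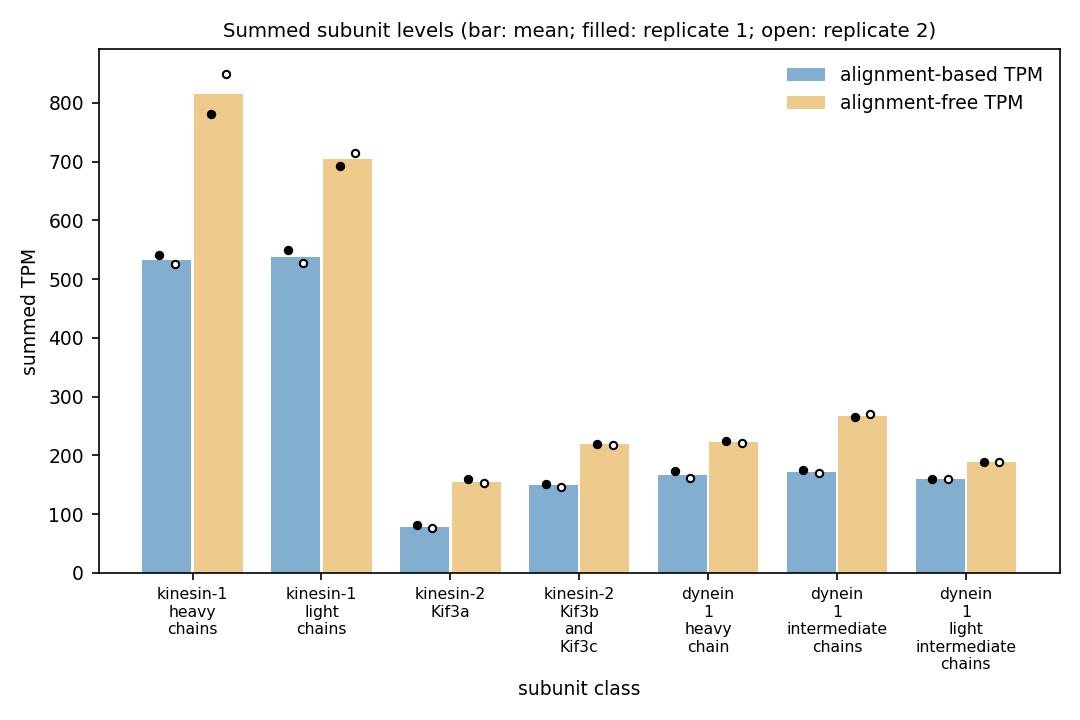
Summed TPM of the subunit classes of kinesin-1, kinesin-2 and dynein 1, with alignment-based (blue) and alignment-free (yellow) values; bars are means of 2 libraries, filled points replicate 1 and open points replicate 2. Kinesin-1 heavy and light chains reach 533 and 538 TPM in the alignment-based tables, and the 3 dynein 1 classes lie between 159 and 172 TPM.

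The 5 cytoplasmic dynein 1 subunit genes that the rule takes all stood above 50 TPM, with a list median of 88.2 TPM in both libraries. The dynein light chains lie outside the rule and are given with the partners below. Dync1h1, the heavy chain that holds the motor domain, stood at 173 and 161 TPM. The intermediate chains, which bind dynactin, were nearly equal, with Dync1i1 at 86.9 and 88.2 TPM and Dync1i2 at 88.2 and 80.5 TPM, and their values overlap. Of the light intermediate chains, which bind cargo adaptors, Dync1li2 stood at 101 and 107 TPM and Dync1li1 at 58.0 and 52.9 TPM. By class the heavy chain summed to 173 and 161 TPM, the intermediate chains to 175 and 169 TPM and the light intermediate chains to 159 and 160 TPM. Intermediate over heavy chain was 1.01 and 1.05, and light intermediate over heavy chain 0.92 and 0.99. In the alignment-free tables the former was 1.18 and 1.22 and the latter 0.84 and 0.86. Light intermediate over heavy chain was 0.76 in both libraries over protein-coding transcripts, a set without Dync1li2-208. This processed transcript of 144 bases held 28.9% and 33.3% of Dync1li2 TPM, and 0% in the alignment-free tables.

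Dynein 2, the retrograde motor of cilia, was present at a lower level. Its heavy chain Dync2h1 stood at 14.6 and 11.6 TPM and its light intermediate chain Dync2li1 at 11.6 and 11.1 TPM. Dync1h1 was 12.7-fold above Dync2h1 (log2 3.67 ± 0.16, SD, n = 2) and 12.8-fold above it in the alignment-free tables.

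The partners of these motors outside the rule were nearly all detected. All 12 dynactin genes, whose complex makes dynein processive, passed 1 TPM, with a median of 101 TPM and with Capzb, Dctn1 and Dctn2 highest at 170, 169 and 161 TPM and Capza1 lowest at 21.9 TPM. Of 12 dynein cofactors and adaptors 11 passed, led by Pafah1b1 (Lis1) at 237 and 207 TPM, while Spdl1, which brings dynein to kinetochores, stood at 0.47 and 0.90 TPM. Of 9 dynein light chains 8 passed, led by Dynll1 at 369 and 332 TPM. The exception was Dynlrb2 at 0.510 and 0.680 TPM. All 10 kinesin adaptors outside the rule passed, led by Mapk8ip1 at 208 and 212 TPM, and Kifap3, the accessory subunit of Kif3a dimers, stood at 135 and 120 TPM. The minus-end kinesin Kifc2, outside the rule by its symbol, reached 144 TPM in both libraries.

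The kinesins listed as mitotic were low, and none of them reached 10 TPM. This holds for the list as drawn. It includes the depolymerase Kif2c but not the depolymerase Kif2a, which was read among the other members and stood at 81.8 and 79.6 TPM. Kif22, a chromosome-arm kinesin, stood at 4.35 and 5.13 TPM, and Kif23, which with Prc1 and others bundles midzone microtubules, at 2.70 and 2.85 TPM. Kif20a, another cytokinesis kinesin, stood at 2.04 and 1.71 TPM, Kif11 (Eg5), which pushes spindle poles apart, at 1.61 and 1.40 TPM, and Kif20b at 1.32 and 1.27 TPM. These values rest on 60 to 142 reads a gene and library. Kif15, which assists Kif11, stood at 2.43 and 1.15 TPM from 69 and 55 reads. The chromokinesin Kif4 stood at 1.68 and 0.68 TPM from 94 and 67 reads, and so missed 1 TPM in replicate 2. Under 1 TPM in both libraries were Kif18a (0.97 and 0.72 TPM), Kif18b (0.96 and 0.71 TPM), the depolymerase Kif2c (0.55 and 0.88 TPM) and Kif14 (0.39 and 0.48 TPM).

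Several of the mitotic values depend on short transcript models. From transcripts of 1 kb or more, Kif22 kept 1.46 of 4.74 TPM (means of 2 libraries), Kif23 0.945 of 2.78 TPM and Kif20b 0.560 of 1.29 TPM, while Kif11 kept all of it within rounding. Kif20a and Kif4 share 29.3% and 15.1% of their exon bases with Cdc23 and Pdzd11 on the opposite strand, which stood higher than they did, at 35.6 and 14.6 TPM in replicate 1.

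The median transport kinesin stood at 47.9 and 44.1 TPM and the median mitotic kinesin at 1.61 and 1.15 TPM. The log2 ratio of these medians was 4.81 and 5.14 (mean 4.98 ± 0.23, SD, n = 2), or 31.5-fold, which is far more than the difference between the animals. In replicate 1 all 15 transport kinesins lay above the highest mitotic kinesin, Kif22, and in replicate 2 14 of 15 did, with Kif16b below it. As sums, the transport kinesins held 1724 and 1667 TPM and the mitotic kinesins 19.0 and 17.0 TPM, a ratio of 90.7 and 98.2. Transport kinesins made up 57.5% and 57.7% of all motor TPM, dynein 1 subunits 16.9% in both, light chains 18.3% and 18.2%, and mitotic kinesins 0.634% and 0.588%. The mitotic sums and shares leave out Kif2a and depend on its place among the other members. A mitotic list with Kif2a was not tested. The markers of dividing cells had a median of 1.94 TPM in both libraries, close to that of the mitotic kinesins.

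The transport and mitotic lists also differed in their promoters. RefSeq promoter windows (GRCm38.p6) of 300 bases, from 250 before to 50 after the start, were at hand for 39 of the 50 genes, in 44 windows. Kif5a, Kif5b, Kif13b, Kif21b, Klc2, Dync1li2, Dync2li1, Kif1bp, Kif19a, Kif20a and Kif28 had none. The cell cycle genes homology region, TTTGAA, is known as an element of promoters of genes that peak in G2 and mitosis. Searched on both strands, these letters were found in 9 of 10 mitotic windows, 1 of 13 transport windows (Kif1a), 0 of 5 dynein 1 windows, 0 of 1 dynein 2 windows, 0 of 3 light chain windows and 2 of 12 windows of the other members (Kif26b and Kif27), against 17.9% of all 32851 windows. In 7 mitotic kinesins (Kif4, Kif11, Kif15, Kif18b, Kif20b, Kif22 and Kif23) a match lay within 30 bases of the start, as it did in Kif26b among the other lists and in 3.14% of all windows. The longer TTTGAAA, which overlaps TTTGAA, was in 5 of 10 mitotic and 0 of 13 transport windows, against 6.50% of all. The CCAAT letters were in 6 of 10 mitotic and 4 of 13 transport windows, against 37.4% of all, and TATAAA in 1 and 1, against 13.6% of all. The variant TTCGAA was in 0 and 0, against 1.56%. GCGCGC was in 2 of 10 mitotic and 3 of 13 transport windows, against 13.6% of all, so these lists differed little in it. Such a match describes the letters and is not a measured binding site. Median GC content was 69.3% for transport and 60.2% for mitotic windows, and 52.7% for all. The genes were listed for their known role in mitosis, so the match is not independent of the list. Shown here are 5 mitotic starts that hold the match and, for contrast, those of a transport kinesin and the dynein heavy chain that hold none, each from 60 bases before to 30 after the start, with TTTGAA or its reverse complement TTCAAA in capitals.
Kif11, chr19:37376322-37376411, plus strand: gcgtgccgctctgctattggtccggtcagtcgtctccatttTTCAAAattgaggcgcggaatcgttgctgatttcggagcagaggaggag
Kif15, chr9:122951021-122951110, plus strand: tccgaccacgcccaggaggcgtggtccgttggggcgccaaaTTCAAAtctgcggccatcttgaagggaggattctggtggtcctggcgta
Kif20b, chr19:34922298-34922387, plus strand: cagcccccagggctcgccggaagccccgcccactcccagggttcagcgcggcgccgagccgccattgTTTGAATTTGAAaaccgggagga
Kif22, chr7:127042391-127042480, minus strand: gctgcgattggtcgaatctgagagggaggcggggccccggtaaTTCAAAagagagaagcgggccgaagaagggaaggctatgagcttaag
Kif23, chr9:61946770-61946859, minus strand: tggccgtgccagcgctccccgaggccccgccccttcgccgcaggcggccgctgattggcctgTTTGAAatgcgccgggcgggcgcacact
Kif5c, chr2:49619226-49619315, plus strand: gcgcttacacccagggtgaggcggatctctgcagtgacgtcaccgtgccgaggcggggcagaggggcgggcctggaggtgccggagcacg
Dync1h1, chr12:110601335-110601424, plus strand: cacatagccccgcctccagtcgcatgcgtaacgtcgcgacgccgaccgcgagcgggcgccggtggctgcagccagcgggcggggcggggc
Kif20b holds the letters as 2 copies end to end, and in Kif11 and Kif15 the match spans the same positions, 19 to 14 bases before the start.

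Of the other members, the microtubule depolymerase Kif2a was highest at 81.8 and 79.6 TPM, followed by Kif1bp at 68.9 and 65.7 TPM and by Kif26b, an atypical kinesin, at 9.26 and 8.21 TPM. Its relative Kif26a stood at 4.05 and 3.80 TPM. The ciliary members were low. Kif19a, a depolymerase at ciliary tips, stood at 1.96 and 3.33 TPM, Kif9 at 2.16 and 2.17 TPM and Kif7, a regulator of Hedgehog signalling, at 1.22 and 1.14 TPM. Kif27 (0.99 and 0.72 TPM) and Kif6 (0.53 and 0.54 TPM) missed the limit of 1 TPM. Kif28 was near the floor at 0.08 and 0.06 TPM, from 5.09 and 3.00 expected reads. Kif12 and Kif2b had 0 reads in both libraries, which allows up to 3 reads each by counting error alone. For a 1 kb transcript that is 0.160 and 0.147 TPM.

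The level of Kif24, a centriolar kinesin, depended on the quantification more than that of any other member. It stood at 0.77 and 0.80 TPM in the alignment-based tables and at 19.9 and 17.6 TPM in the alignment-free tables. Scaled over nuclear protein-coding TPM, which removes the general offset between the tables, Kif24 was 14.94-fold higher in the alignment-free tables. On that scale 41 of the 48 members with reads in both lay within 1.5-fold, with a median ratio of 0.93. The same share over all protein-coding genes was not computed, so the count does not set the motor genes apart. Kif2c (2.79-fold) and Kif28 (2.01-fold) were the other members higher alignment-free by 1.5-fold or more, and Kif5b lay just under that limit. Kif22, Kif20b, Kif6 and Dync1li2 were lower by 1.5-fold or more, at ratios of 0.62, 0.63, 0.63 and 0.65.

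**Figure D3:**
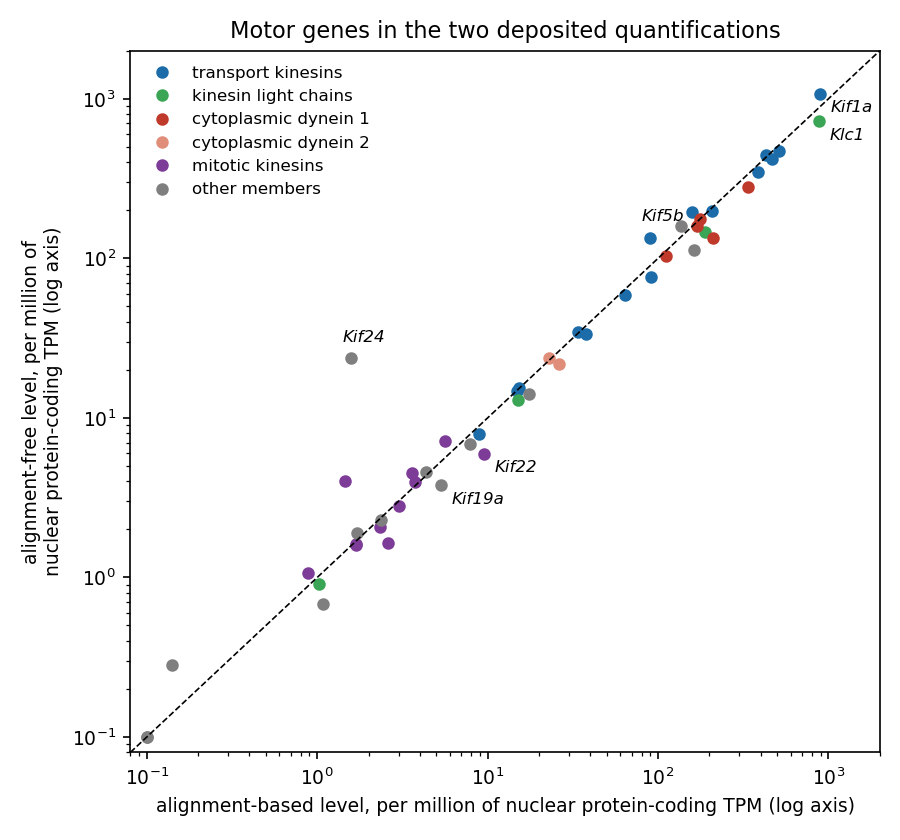
Mean level of each motor gene scaled over nuclear protein-coding TPM in the alignment-based (horizontal) and alignment-free (vertical) tables, both on log axes, coloured by list, with values under 0.1 drawn at 0.1. Most genes lie near the dashed line of equality, and Kif24 lies 14.94-fold above it.

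Transcript shares of the 23 motor genes at 10 TPM or more showed mostly a single leading transcript, with a median share of 69.4% of the gene's TPM. Of the 22 with several transcripts, 20 had the same leading transcript in both libraries. In Dync2h1 and Klc2, whose 2 first transcripts had almost equal alignment-based shares, it differed, as it did for 8.08% of protein-coding genes at that level. The near tie in Klc2 was absent alignment-free, where Klc2-204 held 84.7% and 85.2% and Klc2-201 0.000653% and 0.00337%. Kif3b has 1 transcript, and Kif5a-201 (98.9%), Dync1li1-201 (98.7%), Kif5c-201 (93.7%), Dync2li1-201 (93.7%) and Dync1h1-201 (92.6%, means of 2 libraries) took nearly all of their genes. The leading share differed by at most 10.3 percentage points between the animals, in Kif5b.

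The 2 quantifications named different leading transcripts in both libraries in 4 genes, Klc1, Kif3c, Kif2a and Kif21a, beside 18.5% of protein-coding genes at that level. In Klc1 the alignment-based tables put 50.1% and 54.1% on Klc1-202, of 542 codons, while alignment-free shares were highest for Klc1-203, of 560 codons, at 42.7% and 41.8%. In Kif3c the leaders were Kif3c-201 (50.5% and 48.8%) and Kif3c-205 (55.8% and 62.0%), which code for the same number of codons, 796. In Kif2a they were Kif2a-206 (35.0% and 37.9%) and Kif2a-204 (52.7% and 52.6%). In Kif21a, Kif21a-204 led alignment-based (61.6% and 62.3%), while Kif21a-205 led replicate 1 (41.7%) and Kif21a-202 replicate 2 (38.3%) alignment-free. Short models took part in Kif2a and Kif1a. Kif2a-205, of 288 bases, held 19.6% and 23.6% alignment-based and 0% alignment-free, and Kif1a-206, of 528 bases, held 11.4% and 8.88% alignment-based and 34.1% and 31.3% alignment-free.

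**Figure D4:**
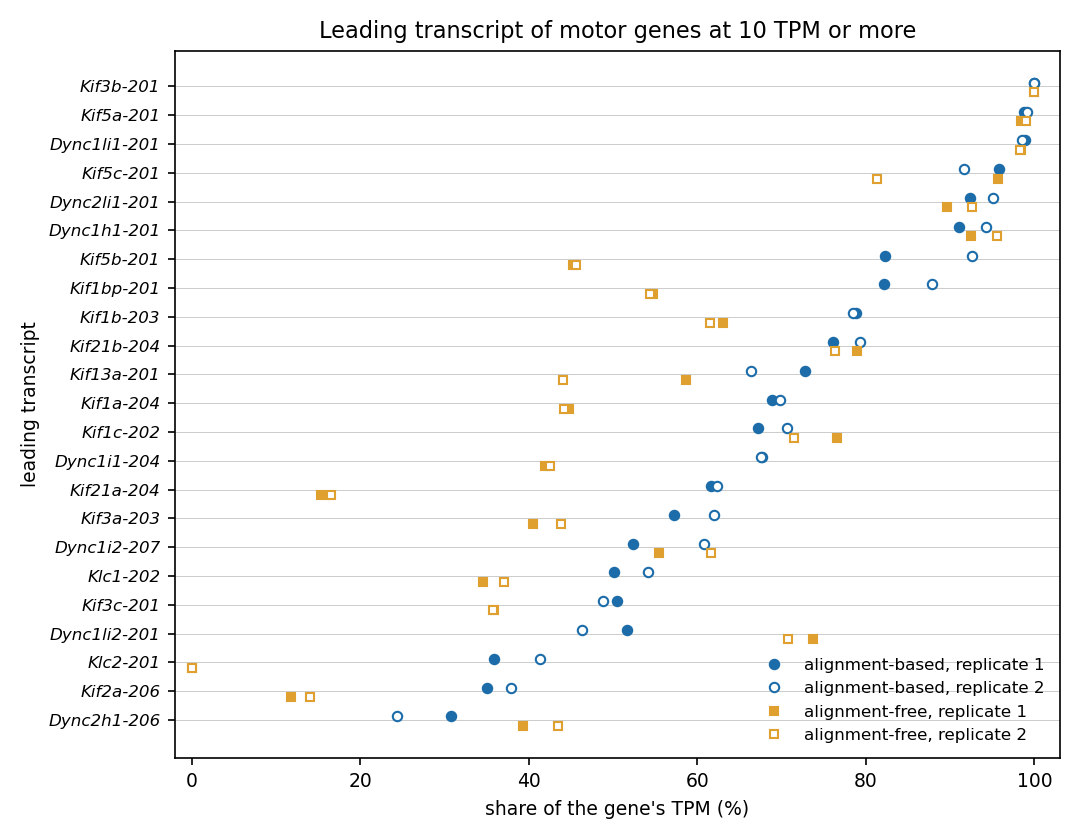
Share of the gene's TPM (%) held by the leading alignment-based transcript of each of the 23 motor genes at 10 TPM or more, with circles for alignment-based and squares for alignment-free tables, filled for replicate 1 and open for replicate 2. Kif5a-201 and Dync1li1-201 lie near 98.9% and 98.7%, while Klc2-201 and Kif21a-204 fall in the alignment-free tables.

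Kif1b makes a long form with a cargo-binding tail for synaptic vesicle precursors and a short form known for mitochondria, and the long form prevailed. The 2 long transcripts, of 1770 and 1816 codons, held 189 and 176 TPM, or 85.7% and 84.7% of the gene. The short one, of 1150 codons, held 3.74 and 3.26 TPM, or 1.69% and 1.57%. The alignment-free tables gave 264 and 262 TPM for the long form against 4.98 and 4.49 TPM for the short form.

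Kif21b was the only 1 of the 22 genes whose leading transcript is not annotated as protein-coding, a state found in 6.06% of protein-coding genes at that level. Its transcript Kif21b-204, annotated as a target of nonsense-mediated decay, held 76.1% and 79.3% of the gene's TPM, and 78.9% and 76.3% alignment-free, so that protein-coding transcripts held 34.3 of 192 TPM (means of 2 libraries). It differs from the protein-coding Kif21b-201 by an additional exon of 180 bases that holds the stop codon and by a shorter first exon, of 333 against 374 bases, and transcripts with this exon made up 80.7% and 81.9% of the TPM of those that span it.

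The alternative exons between the 2 highest transcripts of 1 kb or more had in several motors lengths that are multiples of 3. Transcripts with a 60-base exon of Dync1i1 made up 84.7% and 89.0% of those spanning it, with a 72-base exon of Kif3a 28.6% and 27.3%, and with a 114-base exon of Kif2a 59.0% and 59.2%. In Kif1b, exons of 42 and 18 bases were each in 90.1% and 90.9%, and in Kif1a an exon of 24 bases was in 79.2% and 77.9% and another of 27 bases in 18.9% and 20.2%. In Dync1i2 an 18-base exon was in 34.9% and 27.9% of the TPM alignment-based and in 17.7% and 13.6% alignment-free. Other exon shares depended on the quantification too. Transcripts with a 39-base exon of Kif21a (chr15:90949006-90949044) made up 35.9% and 37.7% alignment-based but 83.6% and 76.1% alignment-free, and with a 51-base exon of Klc1 29.4% and 26.3% against 42.8% and 42.0%. Shown are the Kif21b exon up to its stop codon (in capitals), the Dync1i1 and Kif3a exons and the 24-base exon of Kif1a, from GENCODE M21 transcripts on mm10, shown since each changes the annotated protein.
Kif21b, chr1:136173472-136173571, plus strand: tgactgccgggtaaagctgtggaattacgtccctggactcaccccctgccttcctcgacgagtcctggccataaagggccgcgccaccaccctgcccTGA
Dync1i1, chr6:5784439-5784498, plus strand: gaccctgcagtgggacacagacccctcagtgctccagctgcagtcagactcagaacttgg
Kif3a, chr11:53588689-53588760, plus strand: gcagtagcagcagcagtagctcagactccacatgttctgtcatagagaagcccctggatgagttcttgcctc
Kif1a, chr1:93026832-93026855, minus strand: cgtttccttcggaaatgacactag
The shares are estimates of the authors' programs from the transcript models and are not counts of reads across junctions.

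Between the 2 animals the motor genes differed little, as did genes at large. Reads were scaled with TMM factors, which set the bulk of genes equal between libraries. With a mean of 100 scaled reads or more stood 32 members, and 0 of them were 2-fold or more apart, beside 0.347% of all 12682 such genes (0.181% higher and 0.166% lower in replicate 2). Their median log2 ratio of replicate 2 over replicate 1 was 0.07, beside 0.02 for all genes. The median of the ratios without their sign was 0.075, beside 0.090 for all genes. The transport kinesins ran from -0.09 to 0.15 with a median of 0.06. The 5 dynein 1 subunits lay between -0.02 and 0.10. Of the mitotic kinesins only Kif11 had 100 reads, with a ratio of -0.09. Over all 11 the ratios ran from -0.50 in Kif4 to 0.33 in Kif18b, with a median of -0.01. In genes this low, read ratios and TPM did not always go the same way, and Kif18b stood at 0.96 and 0.71 TPM.

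One member of the 32, Kif19a, was 1.5-fold or more apart, beside 1.71% of all genes. It had 94.5 scaled reads in replicate 1 and 164 in replicate 2, a 1.73-fold difference (log2 0.79). The markers of choroid plexus and ependyma were higher in the same library, Ttr at 3.98 and 9.70 TPM and Foxj1 at 1.35 and 1.82 TPM, with a summed level of 5.93 and 12.7 TPM over the 4, none of them at 0. Other motors of cilia did not move alike, with Kif9 at a log2 ratio of 0.12, Dync2h1 at -0.16, and Kif6, of 29.1 and 13.9 scaled reads, at -1.04. The TPM of Kif6, at 0.53 and 0.54, did not show that difference. The part of these cells in the value of Kif19a was not tested.

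**Figure D5:**
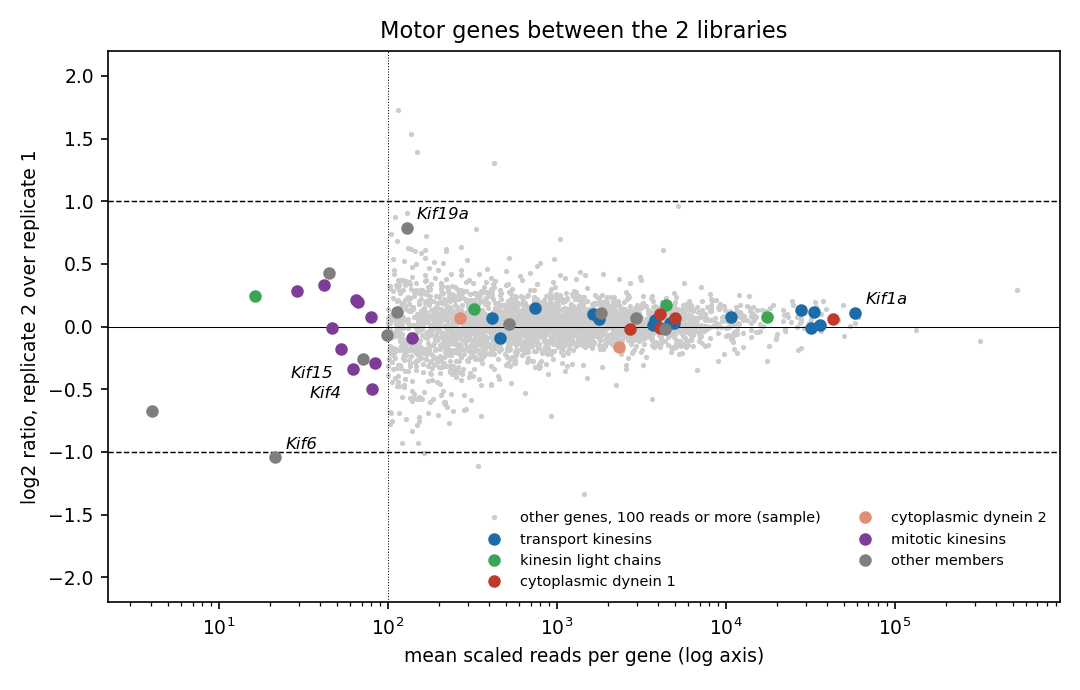
Log2 ratio of replicate 2 over replicate 1 against the mean scaled reads (log axis) for the 48 motor genes with a read, coloured by list, over 3000 other genes with a mean of 100 reads or more drawn at random (grey), 2 of which lie beyond the axis. Motor genes to the right of the dotted line at 100 reads lie between -0.16 and 0.79, inside the dashed lines of 2-fold, and Kif6 lies at -1.04 on fewer reads.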

How the data were processed

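The authors deposited, for each library, expected counts and TPM per gene and per transcript, made from alignments to the transcriptome (annotation M21, assembly mm10), as the deposited README states. The authors' transcript tables also give each transcript's percent share of its gene. The alignment-free estimated counts and TPM were made by the authors from the reads, per the same README. Columns are those of RSEM and kallisto, but tool names and versions were not given in the sources used here. The deposited bounds of TPM, treated as a score since their level is not given, were not used for any result.

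Genes and transcripts matched GENCODE M21 by identifier. Members and lists were chosen with earlier results of these data known. Every member is named; of partner lists the 3 highest, the lowest and those under 1 TPM could be named. Lists are described by the median, and pairs by log2 of TPM + 0.1. Expected counts were rounded to whole numbers, scaled by TMM (edgeR 4.0.16, R 4.3.3), with 0.5 added in ratios. This step was tested on simulated data. DESeq2 1.42.0 gave size factors in an alternative. The remaining steps ran in Python 3.11.15 with pandas 2.3.3, numpy 2.4.6 and matplotlib 3.10.9. No p-value was computed, since 2 libraries allow no exact two-sided p under 0.5. Reads of CAST alleles can map less well to mm10, which was not tested.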

Additional observations from a re-analysis of the deposited data

How the results depend on the processing

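The median transport kinesin (46.0 TPM) was 108 TPM in the alignment-free tables, 92.6 scaled over nuclear protein-coding genes and 41.5 over protein-coding transcripts. The median mitotic kinesin (1.38 TPM) was 2.17, 2.77 and 0.820 TPM under those 3 settings, 0.790 over transcripts of 1 kb or more (chosen after seeing the data) and 1.90 over members at 1 TPM or more. Their log2 ratio (4.98) was 5.57 alignment-free, 5.51 over protein-coding transcripts, 5.68 over transcripts of 1 kb or more, 4.55 over members at 1 TPM or more and 4.31 with a pseudocount of 1. The dynein 1 median (88.2 TPM) was 127 alignment-free, 178 over nuclear protein-coding genes, 80.8 over protein-coding transcripts and 81.1 over transcripts of 1 kb or more. The log2 ratios of Kif5c and Kif5a over Kif5b fell from 2.52 and 2.37 to 1.80 and 1.63 alignment-free. Over protein-coding transcripts (a comparison added after seeing the data) Kif21b over Kif21a fell from 6.01-fold to 1.07-fold. The median leading share (69.4%) was 60.1% alignment-free. One gene, Kif6, was 2-fold apart with a minimum of 20 reads and with no minimum, and 1 gene, Kif19a, was 1.5-fold apart. The causes of these shifts were not tested, apart from the rescaling, which multiplies every level by the same factor.

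Leaving out replicate 1 or 2 in turn gave a transport median of 44.1 to 47.9 TPM, a mitotic median of 1.15 to 1.61 TPM and log2 ratios of 4.81 to 5.14, 3.55 to 3.78 (Dync1h1 over Dync2h1), 2.45 to 2.59 and 2.26 to 2.48 (Kif5c and Kif5a over Kif5b). Detected members numbered 35 to 45 under other tables, scalings and transcript sets, 45 at 0.5 TPM and 27 at 5 TPM. The log2 ratio of Dync1h1 over Dync2h1 stayed within its SD in every alternative run, and the median ratios between libraries moved by less than the 0.090 that a typical gene differs by. No paired analysis was possible because there is 1 group. Mitotic levels rest on 26.0 to 142 reads a gene, which limits their precision.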
